A study of Caenorhabditis elegans with 15 samples.

Results

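The mitochondrial respiratory chain is built from subunits encoded in 2 genomes, and the genes described here are those whose WormBase symbol begins with nuo-, nduf-, nduo-, cox-, ctc-, ctb-, ucr-, atp-, cyc-, isp-, gas-, sdha-, sdhb-, sdhc- or sdhd-. The rule named 57 of the 46911 genes in the count table. Of these, 46 were nuclear and 11 were mitochondrially encoded. The nuclear genes encode 13 subunits of complex I, 4 of complex II, 7 of complex III, 7 of complex IV and 5 of complex V, 2 cytochrome c proteins and 8 assembly factors of complex IV. They lie on all 6 nuclear chromosomes, with 14 on chromosome I and 4 on chromosome X. The mitochondrial genes carry their RefSeq names here (ND1 to ND6, CYTB, COX1, COX2, COX3 and ATP6), which were assigned by position on the mitochondrial genome, and correspond to the nduo-, ctb-, ctc- and atp-6 classes. ND4L, a further mitochondrial subunit of complex I, falls outside the listed prefixes and was not counted as a member. It is 1 of 27 respiratory chain subunits with other symbols, *mev-1*, *asb-1* and *asb-2* among them. Counts and medians by complex therefore cover the members alone and not whole complexes.

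Complexes I and II pass electrons from NADH and succinate to ubiquinone, complex III passes them to cytochrome c, and complex IV passes them to oxygen. Complexes I, III and IV pump protons across the inner mitochondrial membrane, and complex V, the ATP synthase, uses the resulting gradient to make ATP. Complex II is encoded wholly by nuclear genes, whereas the other complexes hold subunits from both genomes, so their assembly depends on transcription in the nucleus and in the mitochondrion. In *C. elegans*, *isp-1* and *gas-1* are known from mutants with altered lifespan or stress resistance.

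RNA was sequenced from whole *C. elegans* L1 larvae, hatched from bleached adults and held without food for 24 h in M9, in 5 groups of 3 replicates, each replicate started from its own plate. One experiment held wild-type animals (WT batch 1, N2 in the study's methods) and animals with the S441L (*oj55*) or P183L (*hy21*) allele of *eff-1*, the gene of the fusogen that joins epidermal cells. Both of these strains came from mutagenesis screens and are listed in the methods with jcIs1, an integrated array holding *rol-6*(su1006), *unc-29*(+) and *ajm-1*::GFP. A second experiment held WT (WT batch 2) and *eff-1*(P37Stop), an edited allele with stop codons in exon 1, made in animals that carry kuIs46 (AJM-1::GFP and *unc-119*(+)) and bqSi640. Comparisons of a mutant with WT were therefore made inside an experiment, and each mutant group is 1 strain, so the allele and the rest of its strain's genome cannot be told apart.

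Total counts per library ranged from 35858217 to 47820215. The RNA of *eff-1* does not test the labels S441L and P183L, because these alleles change the protein and leave the gene in place. P37Stop leaves the gene in place with stop codons in exon 1. *eff-1* RNA was at 16.7, 19.9 and 18.8 counts per 1e6 counts (CPM) in P37Stop and 23.9, 28.5 and 28.5 CPM in WT batch 2. Every P37Stop library was below every WT batch 2 library, and the cause was not tested. The 9 libraries of the first experiment were between 26.2 and 34.5 CPM. The transgene marker *rol-6* was at 412 to 446 CPM in S441L but at 1.41 to 2.06 CPM in P183L, against 0.405 to 0.604 CPM in WT batch 1, so the libraries labelled P183L did not show the high *rol-6* level of the array listed for their strain. The marker *unc-119* was at 810 to 889 CPM in WT batch 2 and 27.5 to 28.8 CPM in WT batch 1, so the 2 WT groups differed in more than the experiment. CPM here are scaled by the trimmed mean of M values (TMM) over all 15 libraries. They were used to set libraries side by side for 1 gene, and the TPM scale (transcripts per 1e6 transcripts), which corrects for gene length, to set genes side by side.

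In WT batch 1 the most abundant nuclear member was *cyc-2.1*, the cytochrome c gene that shuttles electrons between complexes III and IV, at 2477, 2321 and 2342 TPM. The ATP synthase genes *atp-2* (beta subunit of the catalytic head) and *atp-1* (alpha subunit) followed at 1459.8, 1569 and 1540.4 TPM and 933, 1024 and 1002 TPM. At the other end were the second gene copies *nduf-2.2*, *ucr-2.3* and *sdha-2*, each under 10 TPM in every WT batch 1 library. The second cytochrome c gene, *cyc-2.2* (chromosome V, 12611682 to 12612218; positions here and elsewhere are on WBcel235), had at most 3 counts in any library and is the only member that did not pass the filter on low counts, which left 56 members tested in every comparison.

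The share of all counts in the 46 nuclear members was 1.33 to 1.4% in WT batch 1, 1.25 to 1.27% in S441L and 0.824 to 0.841% in P183L. In the second experiment it was 1.61 to 1.84% in WT and 1.28 to 1.4% in P37Stop. In each experiment every mutant library was below every WT library. The share in the 11 mitochondrial members moved over a wider range. It was 0.457, 0.274 and 0.409% in WT batch 1, 0.763, 0.558 and 0.637% in S441L, and 0.110, 0.162 and 0.177% in P183L. In the second experiment it was 2.05, 1.67 and 1.72% in WT batch 2 and 1.94, 2.06 and 1.38% in P37Stop. The mitochondrial share was thus above WT in every S441L library, below WT in every P183L library and overlapping in the second experiment, whose 6 libraries all lay above the 9 of the first. With 3 libraries against 3, an exact permutation test cannot go below p = 0.10, so the shares are given without a test. Replicate 2 of WT batch 1 had the lowest mitochondrial share of its group and another make-up, with ND1 at 14.9% of its mitochondrial mRNA counts against 8.01 and 8.41% in the other 2 libraries. ND2 was the member whose values it moved most, and these are given with and without it.

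**Figure D1:**
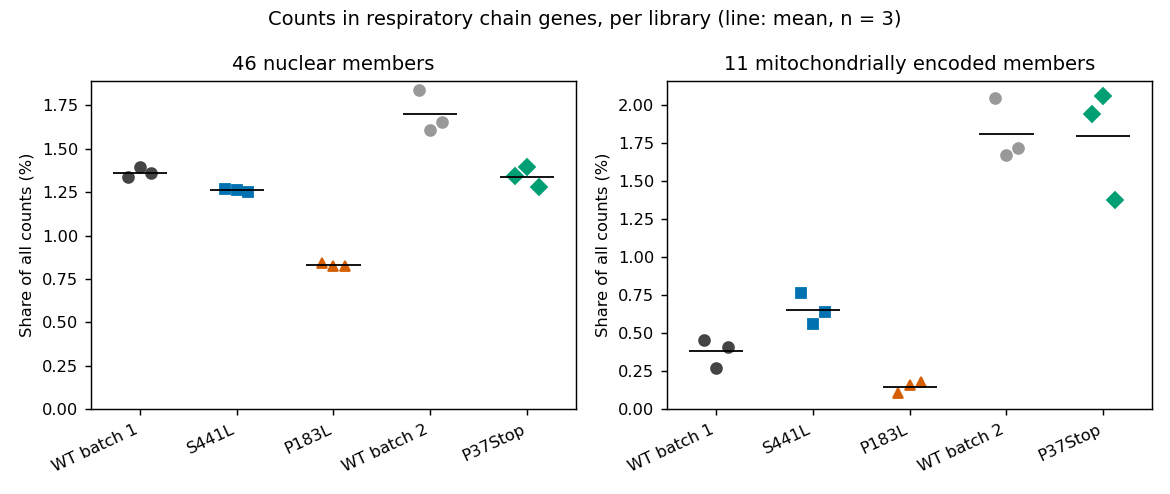
Share of all counts (%, linear axis from 0) in the 46 nuclear members (left) and the 11 mitochondrially encoded members (right) in each of the 15 libraries; points are libraries and lines are means of 3. The nuclear share was lowest in P183L, at 0.824 to 0.841%, and the mitochondrial share ranged from 0.110% in a P183L library to 2.06% in a P37Stop library.

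In *eff-1*(P37Stop), nuclear respiratory chain transcripts were lower than in WT batch 2, and most mitochondrial transcripts were not DEGs. A gene was a DEG where edgeR's quasi-likelihood test gave an adjusted p below 0.05 and the log2 fold change was over 0.5 in size. Of the 45 nuclear members tested, 16 were downregulated and 1 was upregulated, and of the 11 mitochondrial members 1 was downregulated. Among all 15780 genes tested, 5.9% were downregulated, 12.7% were upregulated and 18.6% were DEGs. The median log2 fold change was -0.39 over the nuclear members, -0.20 over the mitochondrial members and 0.02 over all genes. On the CPM of each comparison's own fit, libraries of the 2 groups did not overlap for 34 members, with WT above for 31 nuclear members and 1 mitochondrial member, while 43.3% of all genes did not overlap. Scaling by total counts instead of TMM raised the median of all genes to 0.24 and that of the mitochondrial members to 0.02, and the nuclear median stayed 0.41 below that of all genes. Under that scaling 2 members were downregulated (*atp-1* and *atp-2*) and 3 upregulated.

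The nuclear ATP synthase members were the group with the lowest median in P37Stop (-0.60), and 4 of these 5 members were downregulated. *atp-1* (WBGene00010419, chromosome I, 12652277 to 12654655) was at 3594, 2695 and 2947 CPM in WT batch 2 and 1598, 1812 and 1698 CPM in P37Stop. *atp-2* (WBGene00000229, chromosome III, 5228417 to 5230536) was at 4179, 3305 and 3679 CPM and 2070.0, 2336 and 2137 CPM in the same order. The libraries of the 2 groups lay apart for both genes, which the choice of the lowest members required, with replicate 1 of WT batch 2 the highest. The log2 fold changes were -0.83 ± 0.12 (SE, adjusted p = 0.00061) and -0.74 ± 0.11 (adjusted p = 0.0008).

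In complex III, 5 of 7 nuclear members were downregulated in P37Stop and 1 was upregulated. *ucr-1* (chromosome III, 5592135 to 5594401), a core subunit, was at 755, 606 and 638 CPM in WT batch 2 and 377, 427 and 392 CPM in P37Stop. The log2 fold change of *ucr-1* was -0.71 ± 0.10 (adjusted p = 0.00059). The other downregulated genes were *cyc-1* (cytochrome c1, -0.66), *isp-1* (the Rieske iron-sulfur protein, -0.51) and the core subunit genes *ucr-2.1* (-0.57) and *ucr-2.2* (-0.56). The calls of *isp-1* and *ucr-2.1* rested on single libraries: without P37Stop replicate 3 the log2 fold changes were -0.44 and -0.496, short of the limit, and *isp-1* also lost its call without WT batch 2 replicate 1. *ucr-2.3* (WBGene00020757, chromosome III, 879860 to 881458), a further gene of the same core subunit family, was the only upregulated member, at 8.97, 4.74 and 4.25 CPM in WT batch 2 and 10.2, 19.6 and 14.4 CPM in P37Stop. Every P37Stop library was above every WT library, though the lowest mutant library exceeded the highest WT library by little, and the log2 fold change was 1.33 ± 0.30 (adjusted p = 0.008).

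Complex I had 4 of 13 nuclear members downregulated in P37Stop. They were *gas-1* (the subunit next to the quinone site), *nuo-1* (the subunit that binds NADH and FMN), *nuo-5* and *nduf-9*, with log2 fold changes from -0.64 to -0.59. *nuo-1* (chromosome II, 11097837 to 11100146) was at 592, 468 and 547 CPM in WT batch 2 and 347, 353 and 312 CPM in P37Stop, without overlap (adjusted p = 0.0012). In complex II, *sdha-1*, the flavoprotein subunit, was downregulated from 262, 212 and 236 CPM to 146, 144 and 151 CPM (-0.66 ± 0.09, adjusted p = 0.00043), and the other 3 genes were not DEGs. None of the 7 structural nuclear subunits of complex IV was a DEG by edgeR's quasi-likelihood test, though 5 had an unadjusted p below 0.05, and *cox-4* and *cox-6C* passed the adjusted threshold and missed only the limit on size. Their log2 fold changes ran from -0.46 to -0.14, and *cox-5A* had -0.32 ± 0.13. Of the assembly factors, *cox-10* and *cox-15*, both of heme A synthesis, were downregulated (-0.58 and -0.57). Cytochrome c (*cyc-2.1*) had a log2 fold change of -0.40 ± 0.12 and missed the limit on size.

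CYTB, the mitochondrial subunit of complex III (mitochondrial genome, 4504 to 5621), was the only mitochondrial DEG in P37Stop, at 3722, 2618 and 2855 CPM in WT batch 2 and 2164, 2249.6 and 1554 CPM in P37Stop. The mutant libraries lay below the WT libraries, and the log2 fold change was -0.59 ± 0.16 (adjusted p = 0.02). Without P37Stop replicate 3 or WT batch 2 replicate 1 the change was -0.44 and no longer a call. For the other 10 mitochondrial members the log2 fold changes ran from -0.64 (ND6, SE 0.27) to 0.15 (ND3, SE 0.18), and libraries of the 2 groups overlapped for each of them. ND1 was at 769, 566 and 592 CPM in WT batch 2 and 745, 822 and 469 CPM in P37Stop, and ND6 at 20.5, 15.7 and 11.5 CPM and 8.12, 14.5 and 7.29 CPM in the same order. COX1 was at 7069, 5205 and 6010.0 CPM and 5348, 5793 and 3795 CPM, ND3 at 256, 225 and 203 CPM and 273, 301 and 167 CPM, and ND5 at 1488, 1174 and 1344 CPM and 1449.6, 1481 and 962 CPM. Replicate 3 was the lowest P37Stop library for all of the mitochondrial members.

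Of 24 marker genes of oocytes, early embryos and germ line, 19 were upregulated in P37Stop and none downregulated, and their summed level was 81.8 to 163 CPM in WT batch 2 and 193 to 406 CPM in P37Stop. Among intestine markers 7 of 10, and among body wall muscle markers 3 of 12 were downregulated, with sums of 4439 to 4837 CPM against 6853 to 8560 CPM for intestine and 18305 to 20323 CPM against 23631 to 27098 CPM for muscle. No marker in these lists was at 0 in all libraries of a group, whereas 1 of the 12 epidermis markers was at 0 in every WT batch 2 library. Of 12 neuron markers 0 were called, with sums of 4829 to 5034 CPM in P37Stop against 5463 to 5806 CPM. These sums include *unc-119*, a gene of kuIs46 and the marker named above for its high level in WT batch 2. The log2 fold changes of all 12, *unc-119* among them, lay between -0.37 and 0.36. Of 11 epidermis markers tested, 1 was upregulated and 0 were downregulated (303 to 332 CPM against 286 to 321 CPM). The part of these markers in the respiratory chain results was not tested. In whole animals, fewer cells of a type and less RNA per cell cannot be told apart.

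In *eff-1*(S441L) the medians of the 2 genomes, and most of their calls, went in opposite directions. Of 45 nuclear members, 14 were downregulated, 1 was upregulated and 30 were not called. Of the 11 mitochondrial members, 8 were upregulated and none downregulated. Among all 15685 genes tested, 15.8% were downregulated, 24.2% upregulated and 40% DEGs. The median log2 fold change was -0.32 over the nuclear members, 0.60 over the mitochondrial members and 0.03 over all genes. Libraries did not overlap for 37 nuclear and 8 mitochondrial members, against 70.4% of all genes. Of these, WT was above for 30 nuclear members, and S441L was above for 7 nuclear and all 8 mitochondrial members. Scaling by total counts put the median of all genes at 0.21 and gave 3 downregulated and 11 upregulated members. Of the mitochondrial members, 8 were upregulated under it as well, and the nuclear median stayed 0.34 below that of all genes.

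The structural subunits of complex IV, of which none was a DEG in P37Stop, gave 5 of the 14 nuclear calls in S441L: *cox-4*, *cox-5A*, *cox-5B*, *cox-6A* and *cox-7C*. *cox-5A* (chromosome III, 12905491 to 12906619) was at 561, 668 and 588 CPM in WT batch 1 and 407, 410.0 and 386 CPM in S441L, without overlap. Its log2 fold change was -0.55 ± 0.056 (adjusted p = 1.8e-06), and -0.49, short of the limit, without WT batch 1 replicate 2. In complex I, *nduf-11* (-0.72 ± 0.042), *nduf-7* (-0.72 ± 0.042) and *nuo-3* (-0.54) were downregulated. *nduf-7* (chromosome I, 9108173 to 9110918), which carries the iron-sulfur cluster nearest to ubiquinone, was at 326, 355 and 349 CPM in WT batch 1 and 204, 205 and 199 CPM in S441L, so that the mutant libraries lay far below WT and close to each other (adjusted p = 7.7e-09). The accessory subunit gene *nduf-11* (chromosome II, 11343721 to 11345620) was at 307, 338 and 325 CPM and 192, 191 and 189 CPM in the same order, with a like gap between the groups (adjusted p = 7.4e-09).

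The largest nuclear decrease in S441L was that of *ucr-2.1* (WBGene00012158, chromosome X, 12018429 to 12021206). It was at 467, 541 and 525 CPM in WT batch 1 and 290.3, 294 and 274 CPM in S441L, a log2 fold change of -0.79 ± 0.053 (adjusted p = 2.9e-08). *isp-1* was also downregulated (-0.67 ± 0.041), and in complex V *atp-3* (-0.60), which links the head to the stalk, and *atp-4* (-0.56) were. *atp-1* and *atp-2*, the lowest members of P37Stop, had log2 fold changes of 0.10 ± 0.048 and -0.19 ± 0.045 and were not DEGs. The only upregulated nuclear member was *sdha-2*.

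Among the mitochondrial members, COX1, the catalytic subunit of complex IV (7827 to 9428), was at 1552, 932 and 1462 CPM in WT batch 1 and 2433, 1875 and 2074 CPM in S441L. ND5, a proton-pumping subunit of complex I (11691 to 13272), was at 322, 312 and 303 CPM and 543, 485 and 519 CPM in the same order. Every S441L library was above every WT library for both genes, which the choice of the highest members required. ND5 spread less within each group than COX1. Their log2 fold changes were 0.74 ± 0.15 (adjusted p = 0.0008) and 0.77 ± 0.047 (adjusted p = 1.4e-08). The other upregulated mitochondrial members were ND6 (0.73), ND3 (0.67), CYTB (0.66), ND4 (0.60), ND1 (0.60) and COX3 (0.52). Of these, ND6 was at 7.24, 10.3 and 6.73 CPM in WT batch 1 and 12.3, 12.4 and 14 CPM in S441L, and ND3 at 4.25, 6.58 and 5.54 CPM and 9.61, 7.27 and 8.37 CPM. ND1 was at 406, 478 and 391 CPM and 658, 602 and 611 CPM, and CYTB at 769.9, 415 and 718 CPM and 1135, 842 and 947 CPM. The groups did not overlap for these 4 genes, and the WT spread of CYTB came from replicate 2. COX2, ATP6 and ND2 were not DEGs, with log2 fold changes of 0.29 ± 0.32, -0.15 ± 0.33 and -0.15 ± 0.38.

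Replicate 2 of WT batch 1 bore on these calls. Without it the median over the mitochondrial members was 0.53 instead of 0.60, CYTB (0.42) and COX3 (0.34) fell short of the limit, and ND4 did as well. ND2 was at 4.83, 16.1 and 3.98 CPM in WT batch 1 and 6.70, 7.96 and 6.82 CPM in S441L, so that replicate 2 was the only WT library above the mutant, and without it ND2 was upregulated by 0.73 on the log2 scale. ATP6 was at 259.5, 123 and 266 CPM in WT batch 1 and 311, 113 and 143 CPM in S441L, and each group held 1 library far from its other 2. Without S441L replicate 1, ATP6 had a log2 fold change of -0.72 and was downregulated, and COX3 and ND4 were not DEGs.

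In S441L, 22 of the 24 oocyte, early embryo and germ line markers were upregulated and 1 was downregulated, with sums of 122 to 124 CPM in WT batch 1 and 233 to 236 CPM in S441L. Body wall muscle markers (2 upregulated, 1 downregulated of 12) summed to 22550 to 23335 CPM in S441L against 26090 to 29769 CPM, and 4 of 12 neuron markers were downregulated, with sums of 2313 to 2337 CPM against 4823 to 5073 CPM. Intestine markers gave 3 upregulated and 2 downregulated genes of 10 (8755 to 9404 CPM against 11362 to 13156 CPM), and epidermis markers gave 1 in each direction of 10 tested (759 to 779.8 CPM against 384 to 415 CPM). The upregulated epidermis marker was *rol-6*, a gene of the array listed for this strain. On the CPM of that comparison's own fit it was at 398 to 430 CPM in S441L and at most 0.568 CPM in WT batch 1. The sums are on the scale of all 15 libraries. Without *rol-6*, a choice made after seeing the data, the epidermis sum was lower in S441L (332 to 347 CPM against 383 to 414 CPM). Their part in the respiratory chain results was not tested.

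**Figure D2:**
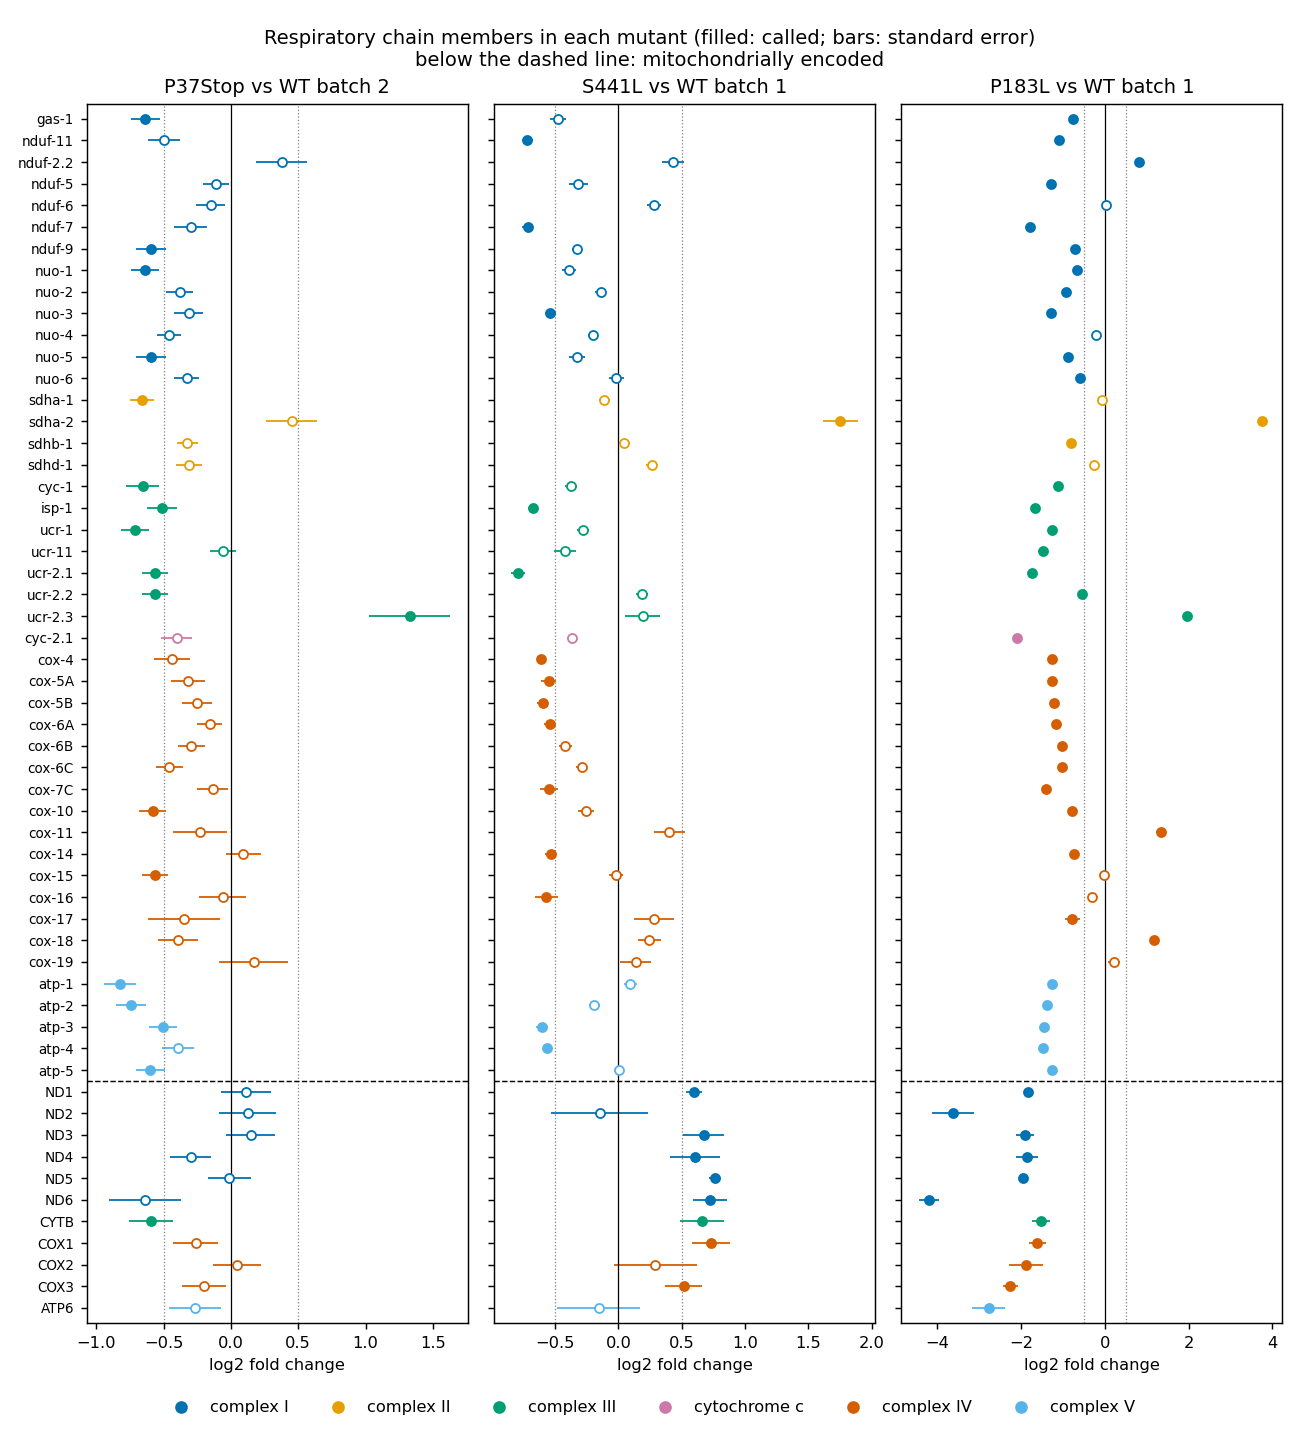
Log2 fold change of each of the 56 tested members in P37Stop against WT batch 2 and in S441L and P183L against WT batch 1, which these 2 mutants share; bars are standard errors, filled points are DEGs, dotted lines mark 0.5 and -0.5, colours mark the complexes, and the horizontal scale differs between the panels. Below the dashed line, 8 of 11 mitochondrial members were DEGs to the right of 0 in S441L and all 11 were DEGs to the left in P183L.

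The largest changes were those of *eff-1*(P183L), in which 33 of 45 nuclear members and all 11 mitochondrial members were downregulated and 5 nuclear members were upregulated. These counts stand against a wide background, as 40.2% of the 15884 genes tested were downregulated, 40.2% were upregulated and 80.4% were DEGs. The median log2 fold change was -0.94 over the nuclear members, -1.91 over the mitochondrial members and 0.02 over all genes. Libraries of the groups did not overlap for 52 members, 47 of them with WT above, and for 91.3% of all genes. Under total counts the median of all genes was 0.53, the nuclear median -0.44 and the mitochondrial median -1.41, and 33 members were downregulated and 7 upregulated.

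By complex, the median log2 fold change of the nuclear subunits in P183L was -0.77 for complex I (10 of 13 downregulated), -0.17 for complex II (1 of 4), -1.25 for complex III (6 of 7), -1.22 for complex IV (7 of 7) and -1.39 for complex V (5 of 5). Cytochrome c had the largest decrease of the nuclear members: *cyc-2.1* (WBGene00017121, chromosome IV, 4747895 to 4749012) was at 1199, 1188 and 1142 CPM in WT batch 1 and 302, 279 and 273 CPM in P183L, a log2 fold change of -2.1 ± 0.048 (adjusted p = 4e-13). The mutant level was 4.28-fold lower, and the libraries lay far apart relative to their spread. *nduf-7* had -1.80 ± 0.044, *ucr-2.1* -1.75 ± 0.051 and *isp-1* -1.67 ± 0.041. *isp-1* (chromosome IV, 8134016 to 8136055) was at 600.1, 649 and 638 CPM in WT batch 1, 379, 393 and 375 CPM in S441L and 209, 201 and 206 CPM in P183L, 2 mutants that are set against the same WT libraries.

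In complex II, *sdhb-1* and *sdha-2* were DEGs in P183L and the other 2 members were not. *sdhb-1* (chromosome II, 9350714 to 9352731), the iron-sulfur subunit, was at 195, 191 and 200.5 CPM in WT batch 1 and 118, 114 and 113 CPM in P183L and was downregulated (-0.81 ± 0.038, adjusted p = 4.1e-10). *sdha-1* had a log2 fold change of -0.08 ± 0.046 and the membrane anchor gene *sdhd-1* -0.27 ± 0.046, and neither was a DEG. The calls of *sdhb-1*, *gas-1*, *nuo-1* and *ucr-2.2* were lost when libraries were scaled by total counts. On the TPM scale *gas-1* was not below WT in P183L, at 140.0, 163 and 152 TPM in WT batch 1 and 160.4, 164 and 165 TPM in P183L. It was not alone in this. *nuo-1*, *nduf-9*, *nuo-6*, *ucr-2.2* and *cox-14*, all downregulated on counts, were above WT batch 1 in TPM in every P183L library. *cyc-2.1*, *nduf-7*, *ucr-2.1* and *isp-1* were below it in TPM as well, so the nuclear decreases depend in part on the scale.

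In all, 5 nuclear members were upregulated in P183L, and all of them had low levels in WT: the gene copies *sdha-2*, *ucr-2.3* and *nduf-2.2* and the complex IV assembly factors *cox-11* and *cox-18*. *cox-11* (chromosome IV, 13244324 to 13247160), which delivers copper to COX1, was at 5.27, 6.55 and 6.13 CPM in WT batch 1 and 16.5, 16.5 and 13.7 CPM in P183L (1.34 ± 0.11, adjusted p = 1.1e-07). *cox-18* (chromosome IV, 1097453 to 1102980), which helps to insert COX2 into the membrane, was at 9.18, 9.27 and 8.71 CPM and 22.6, 22 and 19.2 CPM in the same order (1.18 ± 0.081, adjusted p = 2e-08). Every P183L library was above every WT library for these genes, whereas COX1 and COX2 themselves were downregulated. The assembly factors *cox-10*, *cox-14* and *cox-17* were downregulated, by 0.73 to 0.79 on the log2 scale, and *cox-15*, *cox-16* and *cox-19* were not DEGs.

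In CPM, all of the mitochondrial members had P183L libraries below every WT batch 1 library. In TPM the groups overlapped at COX1, COX2, CYTB and ND4. For 7 of them the log2 fold change lay between -1.95 and -1.53, a narrow band. COX3 (-2.26 ± 0.17), ATP6 (-2.77 ± 0.40), ND2 (-3.64 ± 0.50) and ND6 (-4.21 ± 0.24) lay below that band. COX1 was at 322, 471 and 542 CPM in P183L against 1552, 932 and 1462 CPM in WT batch 1 (-1.61 ± 0.20, adjusted p = 5.5e-06). ND6, a small subunit of complex I and the first gene on the mitochondrial map (113 to 549), was at 7.24, 10.3 and 6.73 CPM in WT batch 1 and 0.373, 0.596 and 0.376 CPM in P183L (adjusted p = 2.7e-09), and rested on 17 to 27 counts a library in the mutant. ND2 likewise had 27 to 35 counts a library in P183L, and its change was -2.76 without WT batch 1 replicate 2. In P183L, ND1 was at 119.4, 123 and 125 CPM, ND5 at 82.9, 88.7 and 78.9 CPM, ND3 at 1.16, 1.61 and 1.73 CPM and CYTB at 161, 247 and 276 CPM. The P183L libraries lay close together for ND1 and ND5, and replicate 1 was the lowest for CYTB and ND3.

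The markers of other cell types moved widely in P183L. All 24 oocyte, early embryo and germ line markers were upregulated, with sums of 1267 to 1288 CPM against 122 to 124 CPM in WT batch 1. Body wall muscle markers were downregulated for 11 of 12 genes (6216 to 6442 CPM against 26090 to 29769 CPM), neuron markers for 11 of 12 (600 to 607 CPM against 4823 to 5073 CPM) and intestine markers for 7 of 10 (747 to 758 CPM against 11362 to 13156 CPM), while 7 epidermis markers were upregulated and 2 downregulated of 10 tested (898 to 909 CPM against 384 to 415 CPM). *rol-6* was at 1.42 to 2.07 CPM in P183L on the CPM of that comparison's own fit, although the array is listed for that strain too. Without *rol-6* the epidermis sum was 897 to 907 CPM. Their part in the respiratory chain results was not tested.

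Set directly against S441L (groups not overlapping for 52 members, against 90.9% of all genes), P183L had 26 nuclear and 11 mitochondrial members downregulated and 4 nuclear members upregulated, where 40.4% of 16127 genes were downregulated, 38.1% upregulated and 78.5% DEGs. The median log2 fold change was -0.54 over the nuclear members, -2.50 over the mitochondrial members and -0.02 over all genes. ND6 had the largest difference, -4.85 ± 0.16 (adjusted p = 1.2e-13), and the other mitochondrial members ran from -3.41 (ND2) to -2.1 (COX2). All 7 structural nuclear members of complex IV, all 5 nuclear members of complex V and 6 of 7 nuclear members of complex III were lower in P183L. *sdha-2*, *ucr-2.3*, *cox-11* and *cox-18* were higher, by 2.07, 1.85, 1.01 and 1.02 on the log2 scale. *gas-1* (-0.21 ± 0.034) and *nuo-1* (-0.19 ± 0.03) differed by less than the limit.

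For the flavoprotein of complex II, the second core protein of complex III and the quinone-site subunit of complex I, more than 1 member encodes the subunit. In each case the copy that was scarce in WT was upregulated in P183L and the abundant one was not. *sdha-1* (chromosome X, 8542757 to 8546021) was at 79.8, 83.9 and 82.1 TPM in WT batch 1 and *sdha-2* (WBGene00016392, chromosome I, 10683270 to 10685587) at 1.56, 1.28 and 1.55 TPM. In P183L they were at 137, 140.0 and 149 TPM and 34.2, 36.9 and 37.4 TPM, so that the median ratio of *sdha-1* to *sdha-2* was 52.8 in WT batch 1 but 15.8 in S441L and 3.99 in P183L. In the second experiment it was 39.0 in WT and 18.5 in P37Stop. The ratio was lower in every mutant library than in every WT library of its experiment.

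In CPM, *sdha-2* was at 2.81, 2.42 and 2.81 in WT batch 1, 8.68, 8.0 and 9.74 in S441L and 35.6, 38.1 and 38.7 in P183L, a stepwise order without overlap. The log2 fold changes against WT batch 1 were 1.75 ± 0.14 (adjusted p = 1.4e-07) and 3.74 ± 0.082 (adjusted p = 2.6e-13). In the second experiment *sdha-2* was at 5.41, 4.74 and 5.14 CPM in WT and 6.67, 7.47 and 6.35 CPM in P37Stop. Those libraries did not overlap either, but the change of 0.45 ± 0.19 was not a DEG (adjusted p = 0.11).

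Of the genes for the second core protein of complex III, *ucr-2.1* was the most abundant and *ucr-2.2* (chromosome X, 15173904 to 15178145) was intermediate, at 79.9, 82.5 and 84.8 TPM in WT batch 1. *ucr-2.3* was scarce, and the median ratio of *ucr-2.1* to *ucr-2.3* was 96.8 in WT batch 1 against 46.3 (S441L) and 7.13 (P183L), and 103 in WT batch 2 against 22.2 (P37Stop). In P183L, *ucr-2.3* was at 21.2, 20.8 and 20.2 CPM against 5.80, 4.42 and 5.11 CPM in WT batch 1 (1.96 ± 0.096, adjusted p = 6.7e-10). It was not a DEG in S441L (0.19 ± 0.14), where the lower ratio came with the decrease of *ucr-2.1*. *ucr-2.2* was downregulated in P183L (-0.54 ± 0.042) and in P37Stop (-0.56 ± 0.096), and it had a log2 fold change of 0.19 ± 0.048 in S441L, where it was not a DEG.

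For the quinone-site subunit of complex I, *gas-1* (chromosome X, 15586786 to 15590397) exceeded *nduf-2.2* (WBGene00006463, chromosome III, 6465222 to 6467206) by a median TPM ratio of 22.6 in WT batch 1 against 12.1 (S441L) and 7.57 (P183L). The second experiment gave 29.7 in WT and 15.1 in P37Stop. *nduf-2.2* was at 9.81, 8.58 and 8.86 CPM in WT batch 1 and 17.1, 16.1 and 16.5 CPM in P183L (0.81 ± 0.08, adjusted p = 7.3e-07). Its change was 0.43 ± 0.089 in S441L and 0.38 ± 0.19 in P37Stop, short of a call in both. How reads that match more than 1 copy were assigned is not given in the sources used here, so the levels of the scarce copies are less certain than those of single genes.

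**Figure D3:**
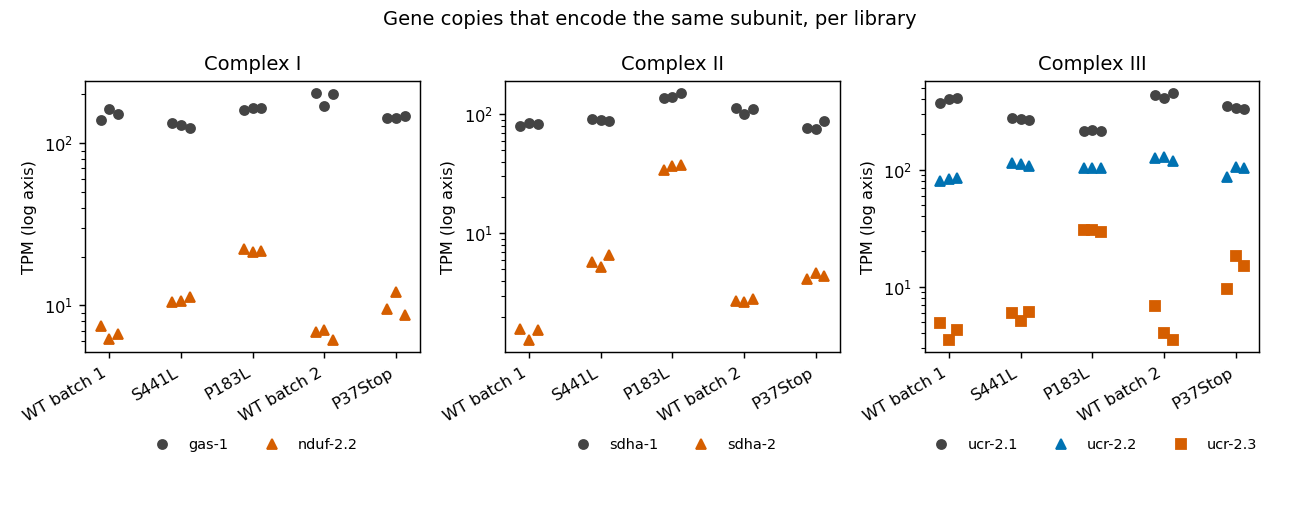
TPM (log axis) of members that encode the same subunit, 1 point per library in 5 groups of 3: *gas-1* and *nduf-2.2* (left), *sdha-1* and *sdha-2* (middle), and *ucr-2.1*, *ucr-2.2* and *ucr-2.3* (right). The scarce copies rose toward the abundant ones in P183L, where the median ratio of *sdha-1* to *sdha-2* was 3.99 against 52.8 in WT batch 1; TPM compare genes within a library, and changes between groups were tested on counts.

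Of the members, the mitochondrial ones differed most between the 2 groups labelled WT. All 11 were upregulated in WT batch 2 against WT batch 1, and their median log2 fold change was 2.31. Of 45 nuclear members, 17 were upregulated and 1 (*cox-14*) was downregulated, and the median was 0.38. Among 15408 genes tested, 18.6% were upregulated, 14.3% downregulated and 32.9% DEGs, and the median over all genes was 0.00. Libraries did not overlap for 44 members, against 61% of all genes. The mitochondrial shift was uneven along the genome. In map order the log2 fold changes were 1.08 (ND6), 0.70 (ND1), 3.82 (ATP6), 5.33 (ND2), 2.37 (CYTB), 1.78 (COX3), 3.91 (ND4), 2.31 (COX1), 2.31 (COX2), 5.49 (ND3) and 2.2 (ND5). Without WT batch 1 replicate 2 the value of ND2 was 6.18.

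ND3 (11356 to 11691), a small subunit of complex I, was at 4.25, 6.58 and 5.54 CPM in WT batch 1 and 256, 225 and 203 CPM in WT batch 2. This is 5.49 ± 0.14 on the log2 scale (adjusted p = 2.5e-10). Its neighbour ND5 was at 322, 312 and 303 CPM and 1488, 1174 and 1344 CPM, 2.2 ± 0.085 on the log2 scale. ND1 (1763 to 2635) was at 406, 478 and 391 CPM and 769, 566 and 592 CPM, 0.70 ± 0.11. Adjacent genes thus differed in the size of the shift by far more than their standard errors. ND3 was 0.0839 to 0.204% of the mitochondrial mRNA counts in WT batch 1 and 1.04 to 1.24% in WT batch 2, while COX1 was 29.0 to 31.4% and 28.6 to 30.9%. In P37Stop ND3 was at 1.3 to 1.49%, and in S441L and P183L at 0.117 to 0.137%, so that the level of ND3 went with the experiment. The experiment, the sequencing and the strain cannot be told apart here, and the part of the *unc-119* level, which moved with them, was not tested.

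COX3, COX2 and ND4 lie between these extremes. COX3 (5678 to 6449), a core subunit of complex IV, was at 1131, 690.1 and 953 CPM in WT batch 1, 1503, 1112 and 1239.6 CPM in S441L and 154, 219 and 228 CPM in P183L. COX2 (9649 to 10348), the subunit that takes electrons from cytochrome c, was at 483, 159 and 412 CPM, 593, 279 and 385 CPM and 42.5, 117 and 137 CPM, and ND4 (6506 to 7808) at 129, 74.9 and 128 CPM, 214, 126 and 151 CPM and 17.2, 34.6 and 43.3 CPM. Replicate 2 of WT batch 1 was the lowest WT library for each of them, and on this scale S441L overlapped with WT at all 3, whereas on the scale of that comparison alone it did so at COX2 and not at COX3 or ND4. In WT batch 2 these genes were at 3448, 2687 and 2783 CPM (COX3), 1975, 1499 and 1408 CPM (COX2) and 1772, 1375 and 1496 CPM (ND4), and in P37Stop at 2657, 3028 and 1927 CPM, 1671, 2040.0 and 1224 CPM and 1351, 1405 and 942 CPM. ATP6 (2634 to 3235), a membrane subunit of complex V, was at 3526, 2569.8 and 2446 CPM in WT batch 2, 2685, 2643 and 1633 CPM in P37Stop and 11.5, 40.8 and 46.4 CPM in P183L, and ND2 (3389 to 4269) at 355, 274 and 279 CPM, 416, 351 and 202 CPM and 0.726, 0.706 and 0.597 CPM. Both were far higher in the second experiment than in any library of the first.

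**Figure D4:**
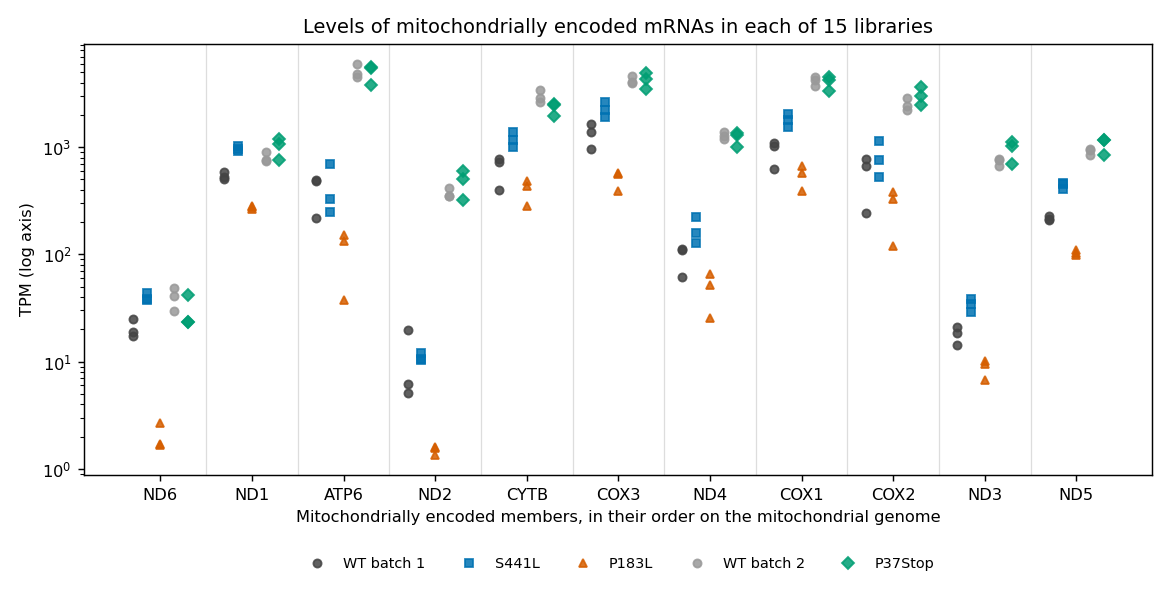
TPM (log axis) of the 11 mitochondrially encoded members in each of the 15 libraries, ordered by position on the mitochondrial genome; symbols and colours mark the 5 groups. The libraries of the second experiment (WT batch 2 and P37Stop) lie above those of the first for every member but ND1 and ND6, with the widest gaps for ND2 and ND3, and the P183L libraries lie below all others for 7 of the 11 members.

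Because WT differed this much between the experiments, alleles were compared through their effects, each against its own WT group, in 1 fit of the 15 libraries. In that fit all groups share 1 estimate of each gene's spread, although replicates differed more in the second experiment. The standard errors of these differences do not reflect that. The effect of P37Stop was lower than that of S441L for 10 nuclear and 4 mitochondrial members and higher for 3 nuclear members, where 13.6% of 17180 genes were lower, 17.1% higher and 30.7% called in either direction. The difference was largest among nuclear members for *sdha-2* (-1.29 ± 0.16, adjusted p = 9.4e-06), *ucr-2.3* (1.15 ± 0.35, adjusted p = 0.016) and *atp-1* (-0.91 ± 0.13, adjusted p = 2.8e-05). Among mitochondrial members it was called for ND6 (-1.35 ± 0.36), CYTB (-1.24 ± 0.32), COX1 (-0.99 ± 0.29) and ND5 (-0.76 ± 0.18). COX3 (-0.70 ± 0.27, adjusted p = 0.051) and ND4 (-0.89 ± 0.39, adjusted p = 0.079) missed the threshold, which does not show that the alleles act alike on them. For *isp-1* the effects of both alleles were negative and differed by 0.17 ± 0.11 (adjusted p = 0.23).

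Against P183L, the effect of P37Stop was higher for 19 nuclear and 11 mitochondrial members and lower for 6 nuclear members, where 35.6% of genes were higher, 29.3% lower and 65% called in either direction. The median difference was 1.88 over the mitochondrial members, 0.41 over the nuclear members and 0.09 over all genes. It was largest for ND2 (3.66 ± 0.65) and ND6 (3.49 ± 0.41) and most negative for *sdha-2* (-3.37 ± 0.16). Without WT batch 1 replicate 2 the difference of ND2 was 2.71 and that of ND6 was the larger. *cyc-2.1* differed by 1.62 ± 0.12, while for *gas-1* (0.05 ± 0.13) and *nuo-1* (-0.06 ± 0.11) no difference between the alleles was called. CYTB (0.85 ± 0.32) was called in 5 of 12 fits that each left out 1 library, with an adjusted p of up to 0.11.

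**Figure D5:**
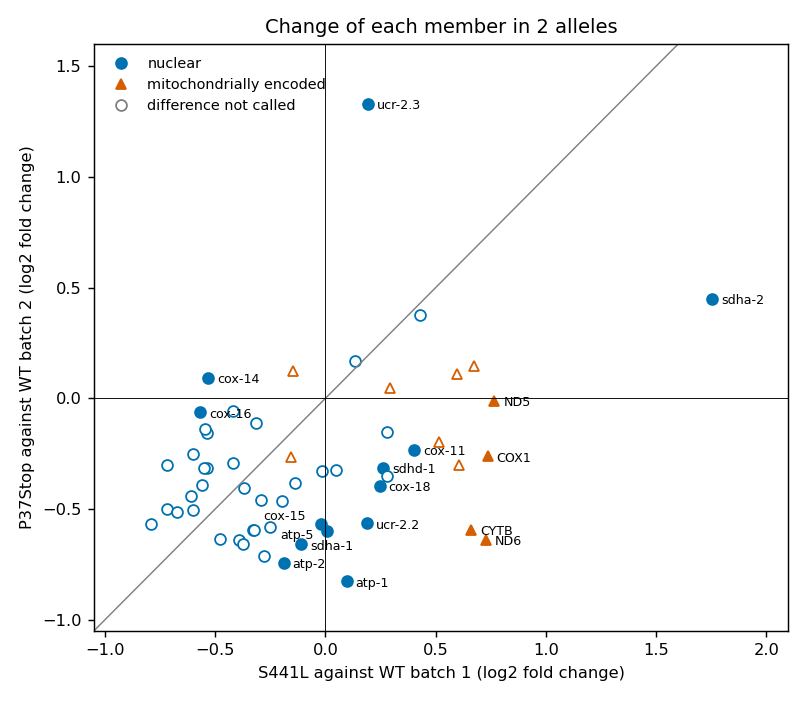
Log2 fold change of each member in P37Stop against WT batch 2 (vertical) and in S441L against WT batch 1 (horizontal); circles are nuclear and triangles mitochondrially encoded members, filled and named where the effects differed (edgeR, adjusted p below 0.05 and a difference above 0.5 or below -0.5), and the grey line marks equal effects. Below the line lie *sdha-2*, *atp-1* and the mitochondrial members ND6, CYTB, COX1 and ND5, and *ucr-2.3*, *cox-14* and *cox-16* lie above it.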

How the data were processed

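RNA was extracted from whole starved L1 animals and sequenced as mRNA libraries. Per the labels and the study's methods, the authors trimmed reads with fastp, aligned them with STAR, removed duplicates with Picard, counted with HTSeq, ran Salmon on the ce11 build and tested with DESeq2; the route that made this table is not given in the sources used here. The deposited table holds expected counts per gene for 46911 genes, of which 3.7% of values were not whole and were rounded. 1 line without a gene ID, which held its column's total, was left out. Gene IDs were named from Ensembl 115 (WBcel235) for 46857 genes. 54 had no annotation.

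Groups came from the labels. In R 4.3.3, edgeR 4.0.16 (quasi-likelihood test, TMM, filterByExpr with a minimum count of 10, Benjamini-Hochberg adjustment over all genes tested) was fitted on the libraries of each comparison. Differences of allele effects came from 1 fit of all 15 libraries. Replicate libraries of a group differed by more than sampling noise (chi-square per degree of freedom 3.28 to 53.0). The range was 3.28 to 19.2 in the first experiment and 23.1 to 53.0 in the second. On simulated data with known changes, the P37Stop comparison recovered 141 of 195 changed genes and made 11 false calls among 15463 genes. These figures take all 195 genes together. Recovery at the sizes reported for the downregulated P37Stop members was not tested.

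Every member was counted. Values in every library are given for the mitochondrial members and for gene copies. They are also given for the most abundant nuclear subunit of each complex and for the largest differences between alleles. For each mutant against its WT, and for P183L against S441L, the 3 highest and 3 lowest changes were named too. These were taken from called members whose groups did not overlap, so their lack of overlap was fixed by the choice. The members, and the lists of other pathway genes and of germ line, muscle, intestine, neuron and epidermis markers, were chosen with earlier results of these data known. Alternatives were other scalings (total counts, upper quartile, DESeq2 1.42.0 size factors, nuclear genes alone), other tests (DESeq2, limma 3.58.1 voom), other filters, a fold limit of 1, the other WT group, the replicate number as a block, and each library left out.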

Additional observations from a re-analysis of the deposited data

Results flagged for a closer look

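For 17 members the effect of P37Stop, against WT batch 2, differed from that of S441L, against WT batch 1, in a test of the difference itself (edgeR's quasi-likelihood test in 1 fit of 15 libraries, adjusted p below 0.05 and a log2 difference over 0.5 in size). On the log2 scale, the difference (P37Stop effect minus S441L effect) was -1.35 for ND6, -1.24 for CYTB, -0.99 for COX1 and -0.76 for ND5 among the mitochondrial members. In complex II it was -1.29 for *sdha-2*, -0.56 for *sdhd-1* and -0.53 for *sdha-1*. The ATP synthase genes *atp-1* (-0.91), *atp-5* (-0.59) and *atp-2* (-0.54) and the complex III gene *ucr-2.2* (-0.74) were also lower in P37Stop by this measure, and *ucr-2.3* (1.15) was higher. Of the complex IV assembly factors, *cox-18* (-0.62), *cox-11* (-0.62) and *cox-15* (-0.53) had a lower and *cox-14* (0.64) and *cox-16* (0.52) a higher effect. Among fits that each left out 1 of the 12 libraries, the call held in 3 of 12 for *cox-16*, 7 of 12 for *cox-11* and 11 of 12 for *ucr-2.3*. The experiments differ in WT level for many of these genes, and the part of that difference in these values was not tested.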

How the results depend on the processing

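Of 3750 values of 210 results on named members under the alternatives, 3514 stayed on the same side of the threshold. Another 142 lost the call, 77 gained one, and 17 values of members called in the main fit changed sign. A change of sign in a member not called in the main fit was not counted apart. The median over the mitochondrial members in P37Stop, most of them not DEGs, moved from -0.20 to 2.08 with the WT of the other experiment. With total counts in place of TMM, P37Stop had 3 members upregulated and 2 downregulated, S441L had 3 downregulated and WT batch 2 had 2 below WT batch 1. That last count was also 2 with the upper quartile and with no filter on low counts. Requiring a TPM above 1 in every library left 9 downregulated in S441L. A fold limit of 1 left 0 downregulated in P37Stop, 0 downregulated and 1 upregulated in S441L, 16 lower in P183L than in S441L, and 12 higher and 0 lower in WT batch 2 than in WT batch 1.

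Exchanging or pooling the WT groups moved the counts of P37Stop and S441L. Against the WT of the other experiment, P37Stop had 13 members upregulated and 6 downregulated, and S441L had 1 upregulated and 33 downregulated. Against both WT groups together, 9 were downregulated in P37Stop and 1 was upregulated in S441L. All 17 changes of sign among results called in the main fit arose here. Counting every member tested, P37Stop gave 4 such changes, S441L 15 and P183L 1, also under these settings. For P37Stop they were CYTB (1.67 with the other WT, 0.051 with both) and *ucr-2.2* (0.052 with the other WT). For S441L with the other WT they were CYTB (-1.68), ND6 (-0.33), ND1 (-0.068), COX3 (-1.23), ND4 (-3.27), COX1 (-1.54), ND3 (-4.78) and ND5 (-1.4), and with both CYTB (-0.96), COX3 (-0.63), ND4 (-2.38), COX1 (-0.83), ND3 (-3.84) and ND5 (-0.71). The WT groups differ by more than the S441L effect at the mitochondrial genes, and by far more at all of them but ND1 and ND6. The construction of these alternatives brings this difference in.

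As a share of TPM, the nuclear members averaged 1.73% in WT batch 1 (S441L 1.59%, P183L 1.31%) and 1.96% in WT batch 2 (P37Stop 1.66%), and the mitochondrial members, in the same order, 0.475, 0.812, 0.228, 2.32 and 2.34%. Without ribosomal RNA in the denominator the nuclear share of S441L was 1.27%. Leaving out 1 library at a time gave 1 upregulated and 13 to 20 downregulated members in P37Stop, 7 to 9 and 13 to 15 in S441L, 5 and 44 in P183L, 4 to 5 higher and 34 to 38 lower in P183L than in S441L, and 25 to 30 higher and 1 to 2 lower in WT batch 2 than in WT batch 1. For the allele differences it gave 1 to 3 higher and 13 to 17 lower against S441L and 26 to 31 higher and 5 to 7 lower against P183L.

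The replicate numbers only name the samples: of 30 pairs none had a correlation of deviations over 0.1 (lowest -0.100, highest 0.0994), and the same-numbered library correlated best in 11 of 30, among them 3 of 3 for WT batch 1 with P183L and, across experiments, for P183L with P37Stop. With the replicate block, 18 members were downregulated in P37Stop in place of 17, and the counts of the other comparisons did not change. ND2 and ND6 in P183L and the scarce gene copies rest on few counts, and 3 libraries a group limit the precision of all values.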

Other observations

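Other genes of oxidative metabolism fall outside the naming rule. Over all genes tested, 12.7% were upregulated and 5.9% downregulated in P37Stop, 24.2% and 15.8% in S441L, and 40.2% in each direction in P183L. Of 27 respiratory chain subunits with other symbols, 1 was upregulated and 3 downregulated in P37Stop, 1 and 7 in S441L and 1 and 17 in P183L (edgeR's quasi-likelihood test), with median log2 fold changes of -0.26, -0.29 and -0.87. The ATP synthase subunit b genes *asb-1* and *asb-2* differed, with *asb-1* at 0.68 and *asb-2* at -0.62 in P37Stop and at 1.23 and -1.89 in P183L. ND4L was at 1.38 in S441L and -1.43 in P183L. It held only 0.0083, 0.057 and 0.014% of the mitochondrial mRNA counts in WT batch 1, with replicate 2 the highest, so these values are uncertain. The 70 mitochondrial ribosome genes gave 0 upregulated and 4 downregulated in P37Stop, 5 and 11 in S441L and 13 and 22 in P183L, with median log2 fold changes of -0.20, 0.07 and -0.04. Of 17 genes of the tricarboxylic acid and glyoxylate cycles, 8 were downregulated in P37Stop, 3 in each direction in S441L, and 9 downregulated and 3 upregulated in P183L. Malate dehydrogenase (*mdh-2*) had log2 fold changes of -0.80, 0.70 and -1.65 in that order. S441L and P183L share their WT libraries.

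Of 8 ubiquinone synthesis genes, 0 were called in P37Stop, 2 were downregulated in S441L, and 4 were downregulated and 1 upregulated in P183L. Of the adenine nucleotide carriers and ATPase inhibitors, 1 gene was upregulated and 1 downregulated in P37Stop (5 tested) and in S441L (4 tested), and 1 was upregulated and 4 downregulated in P183L (5 tested). The carrier gene *ant-1.1*, the most widely used in *C. elegans*, had -0.57, -0.88 and -3.27 on the log2 scale, while *ant-1.3* had 4.31 in P183L. Of 5 genes of mitochondrial DNA replication and transcription, 1 was downregulated in P37Stop, and 1 was called in each direction in S441L and in P183L. Their median log2 fold changes were -0.27, -0.22 and 0.45, and 4 of the 5 were positive in P183L. The mitochondrial RNA polymerase gene *rpom-1* had -0.56, -0.69 and -1.01. The helicase gene *twnk-1* had 0.95 in S441L, 0.71 in P183L and 2.80 in WT batch 2 against WT batch 1. Assembly factors without a listed prefix gave 1 downregulated gene of 5 in P37Stop, 1 in each direction in S441L and 2 in each direction in P183L. Of 6 mitochondrial chaperone and stress regulator genes, 1 was upregulated in P37Stop, 1 in S441L and 1 in P183L, where 3 were downregulated. The chaperone gene *hsp-60* had -0.36, 1.36 and 1.5 and *hsp-6* had -0.09, -0.09 and -1.59.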
